A study of Mus musculus with 12 samples.

Results

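The nuclear genes for the proteins of the mitochondrial ribosome were followed across 12 arrays of MIN6 cells, a mouse insulinoma line used to model the pancreatic beta cell. A gene was a member when its symbol began with Mrpl or Mrps and a number, its probe set carried that symbol alone, and it was not a pseudogene. Where a gene had 2 such probe sets, as 8 members did, the one with the higher mean signal stood for it. This gave 77 of the 19938 genes measured, of which 48 have Mrpl symbols and 29 Mrps symbols. By their known place, 50 belong to the large subunit, among them Mrps30 and Mrps18a despite their names, and 27 are listed in the small subunit. That 27 includes Mrps36, which despite its name is now known as a subunit of the 2-oxoglutarate dehydrogenase complex, so small-subunit counts are also given without it. Mrpl53 shares its probe set with another symbol and was not analysed here.

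The mitochondrial ribosome translates the messenger RNAs that mitochondrial DNA encodes, which make core subunits of the respiratory chain and of ATP synthase. Its ribosomal RNAs come from mitochondrial DNA, while all of its proteins come from nuclear genes and are imported. Some of these proteins have counterparts in the bacterial ribosome and others are particular to mitochondria. In beta cells, ATP from the respiratory chain links glucose to the release of insulin.

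The study set cells transfected with siRNA against Hes3, a basic helix-loop-helix protein that represses transcription, against cells transfected with a scrambled siRNA, in each of 2 culture conditions. In Classic Conditions (CC) the medium held serum at 20% oxygen, and in Defined Conditions (DC) it held no serum at 5% oxygen, so serum and oxygen cannot be told apart. All 4 groups shared the parent line, a plating density of 50000 cells per well, 2 µM siRNA and an assay 12 to 24 hours after transfection. CC had 2 arrays for each siRNA and DC had 4, with the replicate numbers 1, 2, 5 and 7 for Hes3 siRNA and 1 to 4 for scrambled siRNA. Per the labels, duplicates and quadruplicates came from 1 experiment, so p-values measure only the spread between these samples, which may be technical. In such bulk RNA, fewer cells of a kind and less RNA per cell cannot be told apart.

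Hes3 itself was not lower on the arrays labelled Hes3 siRNA. In DC its log2 signals were 7.37, 7.36, 7.38 and 7.25 under the Hes3 label and 7.10, 7.24, 7.19 and 7.22 under the scrambled label, a difference of 0.15 ± 0.0767 (SE; limma, adjusted p = 0.114). In CC they were 7.22 and 7.23 against 7.23 and 6.82, a difference of 0.20 ± 0.109 (adjusted p = 1). Its mean of 7.22 lay in the second dimmest of 4 bins of equal size by mean signal. In that bin the median difference of all genes was 0.21 in DC, where 56.9% were higher, and 0.04 in CC. These values do not settle whether the siRNA lowered Hes3, so groups are named by their labels below. Of 9 beta cell markers, Iapp had a mean log2 signal of 13.75 and Ins2 of 12.86. Under the Hes3 label in DC 4 were lower and 1 higher (1 and 0 without DC arrays 1 and 5, described next). Over all genes 18.3% were lower and 28.9% higher. All 9 but Slc2a2, the 1 that was higher, lay in the brightest of 4 bins of equal size by mean signal. In that bin 40.9% of all genes were lower. Of 23 markers of other cell types, 16 were higher and 0 lower in the same comparison, with a median difference of 0.27, where 28.9% of all genes were higher. By mean signal, 7 of the 23 lay in the dimmest of 4 bins of equal size and 8 in the next. There 36.9% and 56.9% of all genes were higher. Another 7 lay in the third bin, where 19.6% were higher, and 1 in the brightest, where 2.39% were. Of the 7 in the third bin, Irx2, Cela2a, Krt7, Sox9, Col1a1 and Col1a2 were higher and Cd68 was not. Without DC arrays 1 and 5 under the Hes3 label, 0 of the 23 were called, 13 had an unadjusted p under 0.05 in limma and the median was 0.19. Between DC and CC under the Hes3 label 11 were higher and 2 lower, against 21.2% and 18.8% of all genes, and 2 and 2 without those arrays. In DC their summed level ran from 12.9 to 13.1 on the log2 scale under the Hes3 label and was 12.9 on each scrambled array. In CC it was 13.4 on each array of either label. An array gives no true zero, so none of these markers was at 0, and glucagon (Gcg), an alpha cell marker, had a mean of 11.93. The sum adds unlogged signals, so bright genes weigh most in it, and Gcg was the brightest of the 23. Between DC and CC Gcg stood at -0.93 under the scrambled label (limma, adjusted p = 0.000112). Under the Hes3 label it stood at -1.05 (adjusted p = 1.5e-05). The sum is thus not a level of the 23 markers in general. The part of these markers in the results was not tested. DC arrays 1 and 5 under the Hes3 label stood apart: log2 signals over all genes had an SD of 1.5 and 1.53 there, against 1.58 on arrays 2 and 7 of that group and 1.63 to 1.74 on the other 8 arrays. For the comparisons that use both, counts without them are given beside the main groups of genes, and values for named genes whose difference moved by over 1.5 times.

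Promoters of the members are shown as a description, and no link between their letters and the members' differences was tested. The RefSeq promoter table (GRCm38.p6) held a window of 300 bases, 250 before the start and 50 after, for 68 of the 77. The letters CCGGAAG, which ETS factors such as GABP recognise, were sought on both strands and stood in 25 of the 68 (36.8%), against 13.6% of 15614 measured genes and 9.93% of 27025 genes with a window. CGCATGCG, the core of the NRF1 motif, stood in 7 members (10.3%, against 3.0% of measured genes). AAGATGGCG, the YY1 motif, stood in 8 (11.8% against 2.29%). The comparison letters CCAAT stood in 38.2% of members and 41.7% of measured genes, and the E box CACGTG in 7.35% and 9.5%. A match describes the letters only. The stretches below run from 120 bases before the start to 30 after it, 5′ to 3′ on the gene's strand, with the ETS letters (or their reverse complement, CTTCCGG) in capitals. The 5 genes were chosen after their values were seen: Mrps21 (chr3:95871485-95871634, minus strand) and Mrps23 (chr11:88204268-88204417, plus strand) among those lower under the Hes3 label in DC, Mrpl34 (chr8:71464806-71464955, plus strand) with the largest fall between CC and DC, Mrps26 (chr2:130563637-130563786, plus strand) with the largest rise, and Mrpl12 (chr11:120484517-120484666, plus strand) with the largest rise under the Hes3 label.
Mrps21: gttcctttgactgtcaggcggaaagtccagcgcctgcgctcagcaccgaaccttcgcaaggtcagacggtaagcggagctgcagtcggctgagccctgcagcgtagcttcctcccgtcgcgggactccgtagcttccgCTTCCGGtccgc
Mrps23: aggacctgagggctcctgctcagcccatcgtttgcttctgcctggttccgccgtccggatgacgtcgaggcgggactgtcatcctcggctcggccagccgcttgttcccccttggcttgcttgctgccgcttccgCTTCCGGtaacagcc
Mrpl34: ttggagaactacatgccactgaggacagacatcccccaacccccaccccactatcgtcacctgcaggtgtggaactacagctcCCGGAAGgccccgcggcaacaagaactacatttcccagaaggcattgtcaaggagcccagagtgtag
Mrps26: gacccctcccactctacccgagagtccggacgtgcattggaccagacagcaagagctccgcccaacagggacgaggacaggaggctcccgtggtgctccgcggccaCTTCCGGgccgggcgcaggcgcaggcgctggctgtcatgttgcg
Mrpl12: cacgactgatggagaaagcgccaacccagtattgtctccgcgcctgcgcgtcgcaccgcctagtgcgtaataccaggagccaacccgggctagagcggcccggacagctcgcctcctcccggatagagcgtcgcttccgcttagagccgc
The ETS letters began 18 bases after the start in Mrps21, 15 after it in Mrps23, 37 before it in Mrpl34 and 14 before it in Mrps26, and this stretch of Mrpl12 held none of the 3 motifs.

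Across single arrays, the members' medians varied with culture and label, and so did the median of bright genes in general. The median deviation of the 77 genes from their own means over the 12 arrays was 0.09 and 0.17 on the CC arrays under the Hes3 label and -0.03 and 0.22 on the scrambled CC arrays. It was -0.13, -0.05, -0.17 and -0.10 on DC arrays 1, 2, 5 and 7 under the Hes3 label and lay between -0.04 and 0.02 on the scrambled DC arrays. All 4 Hes3-labelled DC arrays were thus below the scrambled DC ones, array 2 only just, at -0.05 against -0.04. The SD of this median between arrays of a group was 0.0741. The CC arrays with the same scrambled label differed most from each other. On these Hes3-labelled DC arrays 52, 58, 63 and 60 of the 77 genes lay below their own mean. On the scrambled DC arrays 44, 49, 28 and 30 did, and on the scrambled CC arrays 47 and 10. The same share over all genes was not counted. For all genes of the brightest of 4 bins by mean signal, the median deviation was 0.05 and 0.09 on the Hes3-labelled CC arrays. It was 0.01 and 0.14 on the scrambled CC arrays, -0.16, -0.06, -0.13 and -0.07 on the Hes3-labelled DC arrays and 0.03 to 0.04 on the scrambled DC ones. In the next brightest bin it lay between -0.03 and 0.05 on every array.

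**Figure D1:**
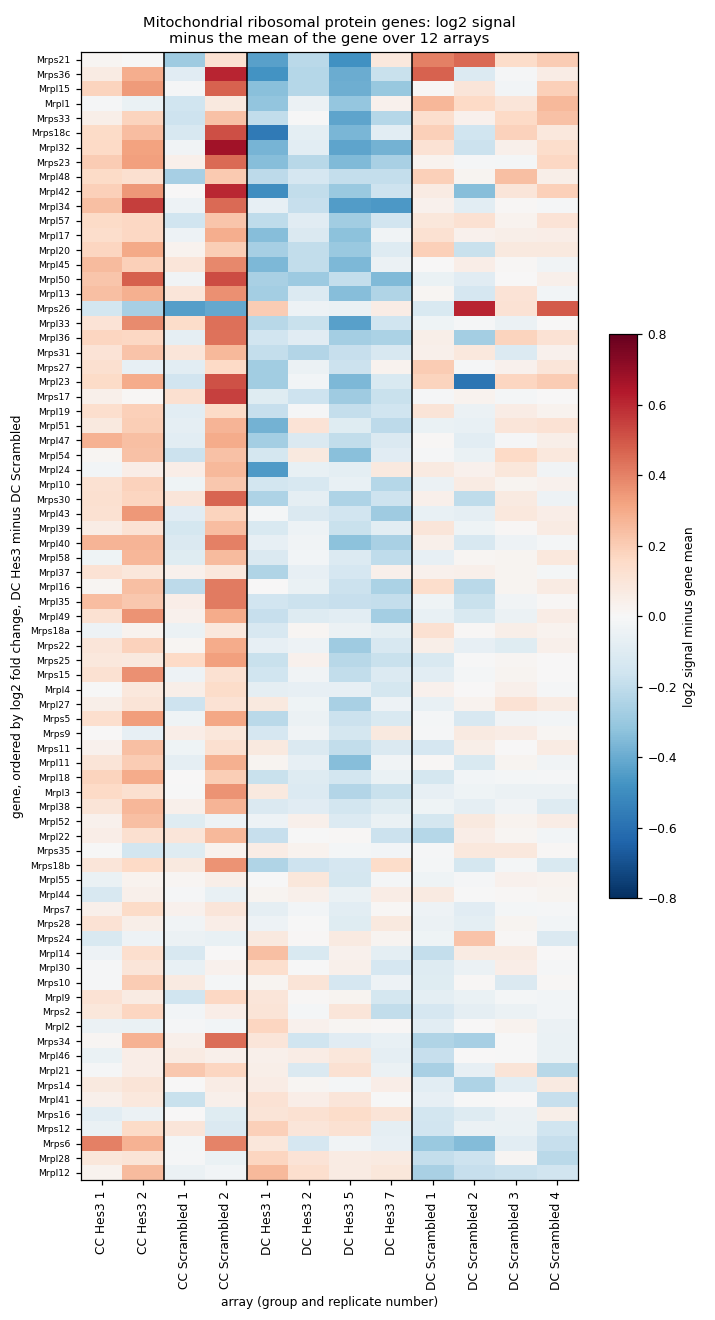
Log2 signal of each of the 77 genes (rows, ordered by their difference between the DC labels) on each of 12 arrays (columns), minus the gene's mean over the arrays; blue is below and red above that mean. The Hes3-labelled DC columns are mostly blue, with medians from -0.17 to -0.05, and scrambled CC array 2 is the reddest, with a median of 0.22. For all genes of the brightest of 4 bins by mean signal, these medians were -0.16 to -0.06 and 0.14.

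In DC, mitochondrial ribosomal protein genes were more often lower than higher under the Hes3 label. Of the 77, 19 (24.7%) fell and 4 rose (limma, adjusted p under 0.05 over all genes), while 18.3% of all genes fell and 28.9% rose. With arrays centred on their medians the members' counts were 28 and 2, and over all genes 5173 fell and 3165 rose, in place of 3639 and 5769. The members' median difference was -0.12, against 0.06 over all genes, and 59 of 77 were below 0. Differences ran from -0.57 to 0.33, and none of the 77 was past both the test and 1.5-fold, as 196 of all genes were. The size of the median rested on the scaling: it was -0.19 with centred arrays (all genes -0.01), -0.07 with cyclic loess (0.00) and -0.04 with quantile normalization (0.02). With a block for the replicate number, which is not a scaling, it was -0.05 (0.07). Numbers 3, 4, 5 and 7 each occur on 1 array, so that fit compares only the arrays numbered 1 and 2.

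The largest fall was in Mrps21, a small-subunit protein with a bacterial counterpart. Its log2 signals were 9.85, 10.07, 9.80 and 10.37 under the Hes3 label (mean 10.02 ± 0.260 SD, n = 4) and 10.69, 10.74, 10.43 and 10.49 under the scrambled label (10.59 ± 0.153, n = 4), a difference of -0.57 ± 0.118 (SE), or 1.48-fold (adjusted p = 0.00422). The groups did not overlap, and array 7 lay closest to the scrambled arrays. In the large subunit Mrpl15, a protein with a bacterial counterpart, gave 8.22, 8.32, 8.16 and 8.25 (8.24 ± 0.0658, n = 4) against 8.56, 8.65, 8.53 and 8.74 (8.62 ± 0.0950, n = 4), a difference of -0.38 ± 0.0887 (adjusted p = 0.00591). All of its Hes3-labelled arrays were below all scrambled ones, and both groups were narrow. Mrpl1, the protein of the mobile stalk beside the site where spent transfer RNA leaves, gave 8.84, 9.11, 8.84 and 9.19 against 9.42, 9.31, 9.25 and 9.41, a difference of -0.36 ± 0.0846 (adjusted p = 0.00665). Arrays 1 and 5 were its lowest values, and arrays 2 and 7 lay just under the scrambled range.

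Among small-subunit proteins particular to mitochondria, Mrps23 gave 8.97, 9.09, 8.96 and 9.05 under the Hes3 label against 9.34, 9.30, 9.30 and 9.48, a difference of -0.34 ± 0.0804 (adjusted p = 0.00679). Its 4 Hes3-labelled arrays spanned little and stayed clear of the scrambled ones. Mrps33, another protein of that kind, gave 8.63, 8.83, 8.40 and 8.60 against 8.96, 8.86, 8.99 and 9.06, a difference of -0.35 ± 0.0936 (adjusted p = 0.00962), and array 2 came close to the scrambled range. Mrps36, the dehydrogenase subunit and not one of these proteins, gave 7.10, 7.35, 7.18 and 7.40 against 8.05, 7.47, 7.57 and 7.64, a difference of -0.42 ± 0.139 (adjusted p = 0.0238). Its scrambled array 1 stood above the other 3. Mrps18c, a small-subunit protein from a family with several variants, differed by -0.35 ± 0.131 (adjusted p = 0.0418) with overlapping arrays. Mrpl32, a large-subunit protein matured by the mitochondrial m-AAA protease, differed by -0.34 ± 0.122 (adjusted p = 0.0322), also with overlap through its array 2 at 7.71.

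The other 11 that fell were all in the large subunit except Mrps31, with differences from -0.31 to -0.17. Chosen after their values were seen, Mrpl48 of the central protuberance gave 9.06, 9.14, 9.08 and 9.08 against 9.46, 9.29, 9.51 and 9.32 (-0.31 ± 0.0854, adjusted p = 0.0119). Mrpl57, particular to mitochondria, gave 9.42, 9.53, 9.35 and 9.47 against 9.71, 9.75, 9.65 and 9.74 (-0.27 ± 0.0741, adjusted p = 0.0111). Neither overlapped between the labels. By class, 13 of 50 large-subunit and 6 of 27 small-subunit genes fell (5 of 26 without Mrps36), with medians of -0.13 and -0.09. Of genes with bacterial counterparts 11 of 45 fell and 4 rose, and of those particular to mitochondria 8 of 32 fell (7 of 31 without Mrps36) and 0 rose, with medians of -0.09 and -0.14.

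The 4 genes that rose all have bacterial counterparts. Mrpl12, the stalk protein that recruits translation factors and that also binds the mitochondrial RNA polymerase, gave 9.04, 8.91, 8.85 and 8.87 under the Hes3 label (8.92 ± 0.0859, n = 4) against 8.52, 8.60, 8.61 and 8.63 (8.59 ± 0.0468, n = 4), a difference of 0.33 ± 0.0646, or 1.25-fold (adjusted p = 0.00368). No array overlapped, and this was the smallest adjusted p among the 77. Mrpl28 of the large subunit gave 8.83, 8.77, 8.72 and 8.73 against 8.47, 8.49, 8.68 and 8.44, a difference of 0.24 ± 0.0612 (adjusted p = 0.00841), with scrambled array 3 just under the Hes3-labelled range. Mrps16, a small-subunit protein whose inherited loss impairs mitochondrial translation, gave 9.55, 9.57, 9.59 and 9.55 against 9.30, 9.34, 9.40 and 9.49 (0.18 ± 0.0577, adjusted p = 0.0203). Its Hes3-labelled arrays were nearly level and above each scrambled array. Mrps12, a protein of the decoding centre, gave 8.49, 8.39, 8.42 and 8.22 against 8.14, 8.25, 8.25 and 8.14 (0.19 ± 0.0738, adjusted p = 0.0478), and its array 7 fell within the scrambled range.

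**Figure D2:**
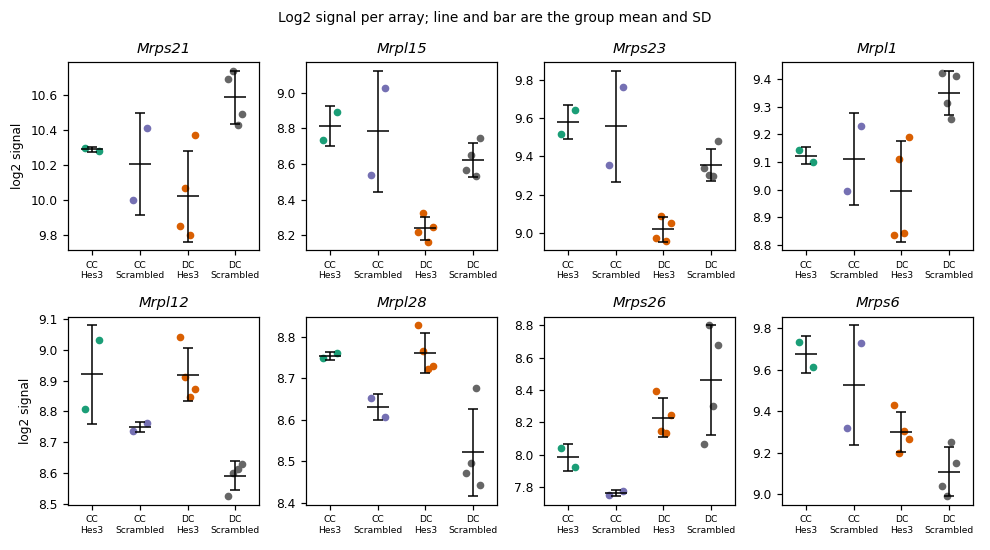
Log2 signal of 8 members (vertical axes, each with its own range that does not start at 0) on each array of the 4 groups (horizontal axis); the line and bar are the group's mean and SD, with n = 2 in CC and n = 4 in DC. Mrps21, Mrpl15, Mrps23 and Mrpl1 are lowest under the Hes3 label in DC, Mrpl12 and Mrpl28 are lowest under the scrambled label in DC, and Mrps26 is lowest on the scrambled CC arrays, at 7.75 and 7.78.

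These calls depended on single arrays. Of the 23, 9 were called in each of the 12 fits that left out 1 array: Mrps21, Mrpl15, Mrpl1, Mrps23, Mrps33, Mrpl48, Mrpl57, Mrpl12 and Mrpl28. The count of 19 became 11 without Hes3-labelled array 1, 8 without array 5, 9 without scrambled array 1, 12 without scrambled array 3 and 12 without scrambled array 4. The count of 4 became 2 without Hes3-labelled array 5 and 2 without scrambled array 1. Without Hes3-labelled arrays 1 and 5 together, limma called 0 members in either direction at the adjusted threshold, 15 had an unadjusted p under 0.05, all 23 kept their sign and the median was -0.08. Calls lower over all genes went from 3639 to 282 and calls higher from 5769 to 49. The 23 adjusted p-values then ran from 0.0531 (Mrpl12, 0.30 ± 0.0719) to 0.46 (Mrps18c). Differences that moved by over 1.5 times were those of Mrps21 (-0.37 ± 0.120, adjusted p = 0.0854), Mrpl1 (-0.20 ± 0.0786, adjusted p = 0.123), Mrps18c (-0.15 ± 0.141), Mrpl17 (-0.13 ± 0.0827), Mrpl45 (-0.13 ± 0.0811), Mrpl33 (-0.14 ± 0.0887) and Mrps12 (0.11 ± 0.0851). Mrpl15 stood at -0.34, Mrps23 at -0.28 and Mrpl28 at 0.23.

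Members are brighter than most genes, and differences between the DC labels varied with brightness. When all genes were put in 4 bins of equal size by mean signal, 39 members lay in bin 3 and 27 in bin 4, the brightest. In bin 3, 11 of 39 members (28.2%) fell under the Hes3 label in DC, against 24.7% of all genes there. In bin 4, 6 of 27 (22.2%) fell against 40.9%. The members' share was thus near that of genes of like signal in bin 3 and below it in bin 4. Median differences were -0.09 against -0.03 in bin 3 and -0.12 against -0.15 in bin 4. The 10 members of bin 2 had a median of -0.16 where all genes there had 0.21, and 2 of the 10 (20%) fell against 6.2% of all genes there, of which 56.9% rose.

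Between the culture conditions under the Hes3 label, many members were lower in DC. Of the 77, 35 (45.5%) fell and 1 rose, while 18.8% of all genes fell and 21.2% rose. The median difference was -0.24 against 0.09 over all genes, the range was -0.69 to 0.25, and 67 of 77 were below 0. This comparison uses the same 4 DC arrays as the one above, set here against 2 CC arrays.

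Mrpl34, a small large-subunit protein with a bacterial counterpart, had the largest fall. It gave 10.12 and 10.43 in CC (10.27 ± 0.221, n = 2) and 9.81, 9.69, 9.43 and 9.42 in DC (9.59 ± 0.196, n = 4), a difference of -0.69 ± 0.133, or 1.61-fold (adjusted p = 0.00153). Each CC array was above each DC array. Mrpl50, particular to mitochondria, gave 8.84 and 9.10 in CC and 8.36, 8.33, 8.43 and 8.27 in DC, a difference of -0.63 ± 0.117, or 1.54-fold (adjusted p = 0.00117). These were the only members past both the test and 1.5-fold, as 1103 of all genes were. Mrpl15 gave 8.73 and 8.89 in CC against its DC values above (-0.57 ± 0.109, adjusted p = 0.00126), and Mrps23 gave 9.52 and 9.64 (-0.56 ± 0.0985, adjusted p = 0.000716). Mrpl13, a large-subunit protein with a bacterial counterpart, gave 8.83 and 8.88 in CC and 8.32, 8.48, 8.25 and 8.35 in DC (-0.50 ± 0.0905, adjusted p = 0.000859). None of the 3 overlapped between CC and DC.

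Mrpl42, a protein particular to mitochondria and the dimmest member, fell by 0.56 ± 0.156 on the log2 scale (adjusted p = 0.013), with 6.31 and 6.47 in CC against 5.62, 5.92, 5.82 and 5.95. Mrpl32 fell by 0.55 ± 0.149 (adjusted p = 0.011) and Mrps36 fell by 0.50 ± 0.170 (adjusted p = 0.0319). The arrays of neither overlapped. Of the large subunit 25 of 50 fell and of the small subunit 10 of 27 (9 of 26 without Mrps36), with medians of -0.27 and -0.21. Of members with bacterial counterparts 18 of 45 fell, and of those particular to mitochondria 17 of 32 (16 of 31 without Mrps36). Without DC arrays 1 and 5 these 4 counts were 15, 4, 11 and 8. In the central protuberance, which contacts both transfer RNAs and the small subunit, 4 of 6 fell (Mrpl18, Mrpl38, Mrpl40 and Mrpl48, by 0.36, 0.30, 0.44 and 0.32). Around the polypeptide exit 1 of 6 fell, Mrpl45 (-0.46 ± 0.0957, adjusted p = 0.00241), which ties the ribosome to the inner membrane. Mrps16 rose by 0.18 ± 0.0706 (adjusted p = 0.0481), from 9.36 and 9.40 in CC to 9.55 or more on each DC array, and lost the call in 9 of 12 fits without 1 array. Mrps26 at 0.25 (adjusted p = 0.184) had a larger difference without passing.

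**Figure D3:**
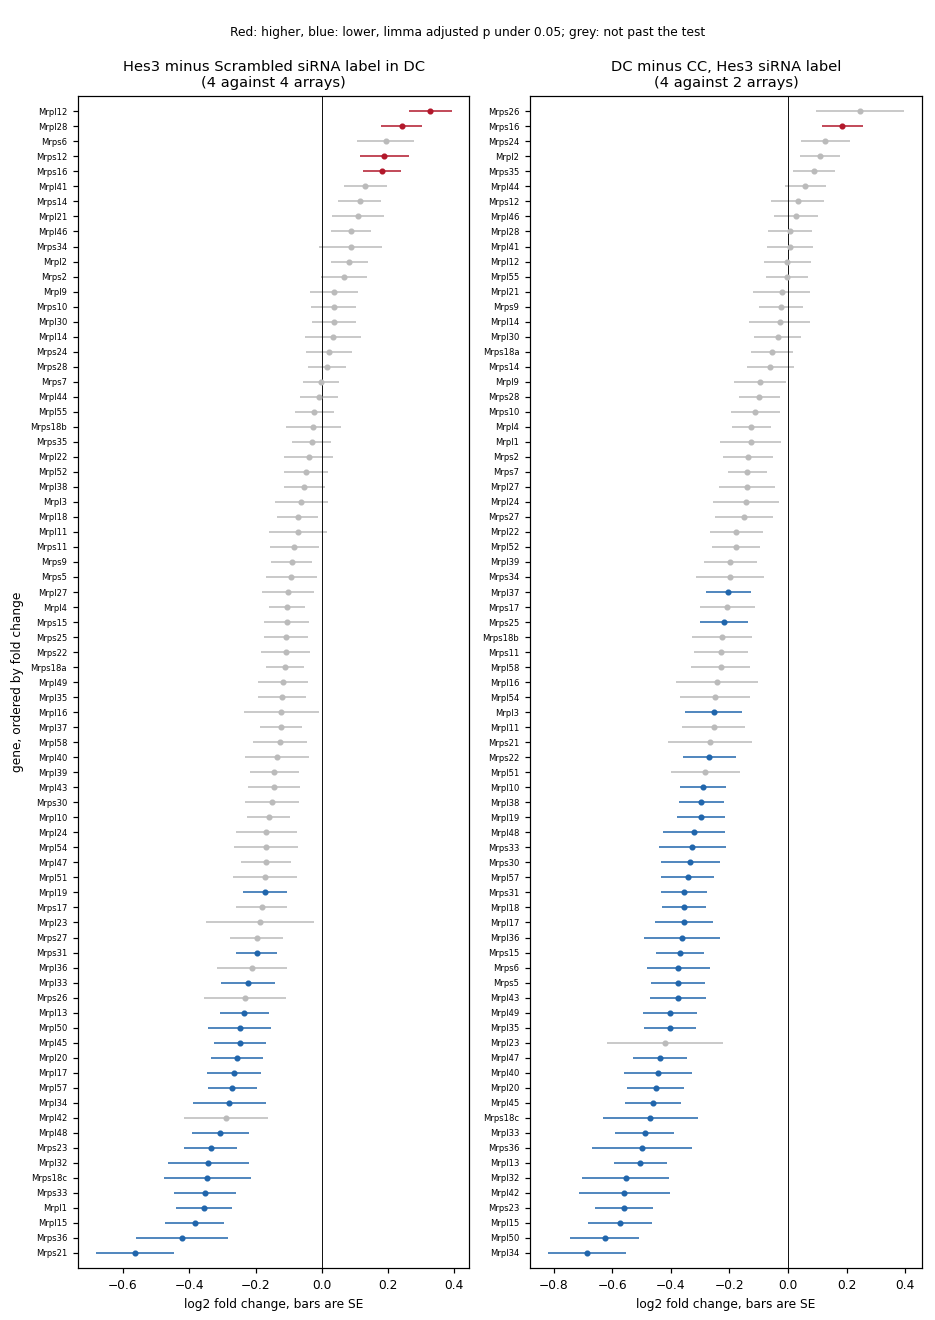
Log2 fold change of each of the 77 genes (rows, ordered within each panel) with its SE, for Hes3 against scrambled label in DC (left, 4 against 4 arrays) and DC against CC under the Hes3 label (right, 4 against 2). Blue marks the 19 and 35 genes that fell, red the 4 and 1 that rose, and both panels share the 4 Hes3-labelled DC arrays.

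The 2 CC arrays set the precision here. Leaving out either CC array under the Hes3 label left 1 array in that group. The members' median was then -0.22 without array 2 (all genes 0.08) and -0.31 without array 1 (all genes 0.09). Most of the 36 members called lost the call in at least 1 fit without 1 array. Leaving out DC arrays 1 and 5 together gave 19 members that fell, against 12.4% of all genes. In that last fit the differences of Mrpl17 (-0.22), Mrpl37 (-0.12) and Mrps18c (-0.28) moved by over 1.5 times. The median of the 77 was -0.15 with quantile normalization (all genes 0.02), against -0.24 without it. By brightness, 15 of 39 members of bin 3 fell (38.5% against 24.6% of all genes there) and 15 of 27 of bin 4 (55.6% against 44.5%). In bin 2 it was 4 of 10, against 5.3%. The members' medians were -0.18 against -0.03 in bin 3 and -0.29 against -0.19 in bin 4. In the fit of all 12 arrays, the shares in bins 2 to 4 were thus above those of genes of like signal, as a description with no test of the list.

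**Figure D4:**
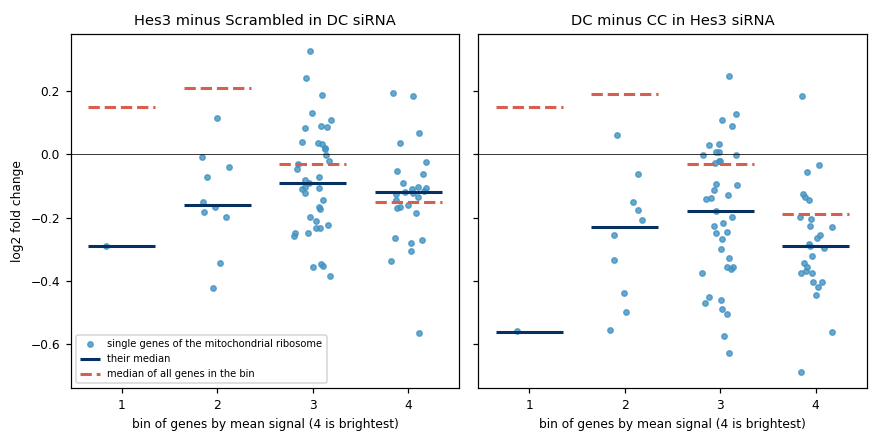
Log2 fold change of the 77 genes (points) by bin of all genes ranked by mean signal (horizontal axis, 4 is the brightest), for both comparisons; solid lines are the members' median and dashed lines the median of all genes in the bin. In bin 4 the members' median of -0.12 is near the -0.15 of all genes between the DC labels, and their -0.29 is below the -0.19 of all genes between DC and CC.

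Between the culture conditions under the scrambled label, few members passed the test: 1 rose and 2 fell, while 3.09% of all genes rose and 5.45% fell. The median difference was -0.10 against 0.02 over all genes. Mrps26, a small-subunit protein particular to mitochondria, rose the most of the 77. It gave 7.75 and 7.78 in CC (7.77 ± 0.0205, n = 2) and 8.07, 8.80, 8.30 and 8.68 in DC (8.46 ± 0.339, n = 4), a difference of 0.70 ± 0.150, or 1.62-fold (adjusted p = 0.00737). All DC arrays were above the CC arrays, with a wide spread among them. Without scrambled CC array 2 the difference was 0.71 with an adjusted p of 0.058.

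Mrps6 and Mrps17, both small-subunit proteins with bacterial counterparts, fell. Mrps6 gave 9.32 and 9.73 in CC and 9.04, 8.99, 9.25 and 9.15 in DC (-0.42 ± 0.107, adjusted p = 0.0209). Mrps17 gave 7.81 and 8.24 in CC and 7.68, 7.72, 7.67 and 7.69 in DC (-0.34 ± 0.0939, adjusted p = 0.035). Neither overlapped, and in each the CC arrays lay far apart. On scrambled CC arrays 1 and 2, 47 and 10 of the 77 members lay below their own mean. Without scrambled CC array 2, Mrps6 stood at -0.21 (adjusted p = 0.458) and Mrps17 at -0.13 (adjusted p = 0.67). Without the same array 0 members fell, 0 rose and the median difference was 0.01, and without scrambled CC array 1 the count that fell was 21 and the median -0.21. The count that fell was 0 without scrambled DC array 1 or array 2, and 1 without scrambled DC array 4 or without either Hes3-labelled CC array. The count that rose was 2 without Hes3-labelled DC array 7. Mrps21, which fell under the Hes3 label in DC, had 10.00 and 10.41 in scrambled CC, and its difference between scrambled DC and CC was 0.39 ± 0.144 (adjusted p = 0.125).

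In CC, limma called 0 members and 0% of all genes between the labels. At an unadjusted p under 0.05 there were 3 members, and 415 of all genes. The median difference was 0.03 against 0.02, with a range from -0.31 to 0.22, and it turned to -0.09 without scrambled CC array 1 and -0.01 without Hes3-labelled CC array 2, and became 0.18 without scrambled CC array 2. The members with the smallest p, given as values, were Mrps17 (-0.31), Mrps25 (-0.16), Mrpl21 (-0.17) and Mrps9 (-0.10) below 0, and Mrpl52 (0.21), Mrps15 (0.20), Mrpl12 (0.17) and Mrpl43 (0.19) above it, each with an adjusted p of 1. With 2 arrays a group, the members' median SE was 0.107, so a difference of the median size seen in DC was not detectable.

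The difference between the DC and CC label contrasts was tested directly, and limma called 0 members and 0% of all genes. At an unadjusted p under 0.05 there were 16 members and 3471 of all genes, and the smallest adjusted p among the members was 0.198. So the falls in DC are not shown to differ from CC. As values, Mrps21 stood at -0.65 ± 0.204, Mrpl48 at -0.48, Mrpl57 at -0.40 and Mrpl20 at -0.38, and Mrpl21 at 0.28, Mrps16 at 0.20, Mrpl12 at 0.16 and Mrpl46 at 0.14. The fit without scrambled CC array 2 leaves 1 array in that group, so calls from it are not read as a result.

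Probe sets of the same gene did not always move together. Between the labels in DC, Mrpl41 had 0.13 on the probe set used and -0.05 on the other, and Mrpl47 had -0.17 and 0.14, none past the test. Between DC and CC under the Hes3 label the other probe set of Mrpl41 stood at -0.41 (adjusted p = 0.0144) against 0.01 on the one used, and that of Mrpl51 at -0.53 (adjusted p = 0.00104) against -0.28 (adjusted p = 0.072). The other probe set of Mrpl47 stood at -0.05 there, against -0.44 on the one used. The values of these 3 genes are uncertain for that reason. Both probe sets of Mrps33 (-0.35 and -0.35) and of Mrps36 (-0.42 and -0.48) fell between the labels in DC. Between DC and CC under the Hes3 label their other probe sets were below 0 without passing the test. That of Mrps33 stood at -0.22 (limma, adjusted p = 0.117) against -0.33 on the one used. That of Mrps36 stood at -0.48 (adjusted p = 0.0573) against -0.50.

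The other nuclear genes that serve mitochondrial translation were counted the same way, and their counts stand beside the 18.3% of all genes that fell and the 28.9% that rose between the labels in DC. In each of the 6 lists most genes lay in bins 3 and 4 by mean signal. There 24.7% and 40.9% of all genes fell, and 19.6% and 2.39% rose. Of the 85 genes of these lists, 27 fell and 3 rose. Without Hes3-labelled DC arrays 1 and 5 together all 30 kept their sign, and 2 were still called, Tfb1m (-0.59, adjusted p = 0.0314) and Iars2 (-0.30, adjusted p = 0.0491). Of 6 further ribosomal or ribosome-bound proteins measured under other symbols, 3 fell and 0 rose under the Hes3 label in DC: Ptcd3 (-0.37 ± 0.102, adjusted p = 0.0114), Chchd1 (-0.26 ± 0.0817, adjusted p = 0.0207) and Dap3 (-0.20 ± 0.0693, adjusted p = 0.0301), all parts of the small subunit. Without arrays 1 and 5, Ptcd3 stood at -0.18 and Chchd1 at -0.13. Between DC and CC under the Hes3 label 5 of the 6 fell (2 without arrays 1 and 5), against 18.8% of all genes. Of 14 translation factors and RNA-binding partners 2 (14.3%) fell in DC, Guf1 (-0.50 ± 0.115, adjusted p = 0.00588, and -0.26 without arrays 1 and 5), a ribosome-bound GTPase, and Lrpprc (-0.15 ± 0.0542, adjusted p = 0.0329), which stabilises mitochondrial messenger RNA. Of 21 genes for ribosome assembly and rRNA modification 6 (28.6%) fell and 1 rose. Tfb1m, the methyltransferase of the small rRNA, had a larger difference than any member (-0.77 ± 0.110, adjusted p = 0.00168). Gtpbp10 (-0.38, and -0.25 without arrays 1 and 5), Noa1 (-0.34) and Eral1 (-0.20), GTPases of ribosome assembly, fell too.

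Of 19 genes for making mitochondrial aminoacyl-tRNA, mostly synthetases, 5 (26.3%) fell and 1 rose. Among those that fell were Yars2 (-0.43), Iars2 (-0.41), Nars2 (-0.26) and Gatc (-0.25), the last not itself a synthetase. Of 15 genes that copy, transcribe or process mitochondrial nucleic acids 8 (53.3%) fell and 0 rose. Tfb2m, the transcription initiation factor, fell by 0.66 ± 0.114 (adjusted p = 0.0029), Tfam, which packages mitochondrial DNA, fell by 0.40 ± 0.104 (adjusted p = 0.00855), Hsd17b10, a subunit of the tRNA-processing enzyme, fell by 0.36, and Mterf2 fell by 0.27. Without Hes3-labelled DC arrays 1 and 5, Tfam stood at -0.25, Mterf2 at -0.16 and Nars2 at -0.15. Polrmt, the polymerase itself, stood at 0.08 (adjusted p = 0.263). Of 10 nuclear regulators of mitochondrial genes 3 (30%) fell, Yy1 (-0.38 ± 0.101, adjusted p = 0.00965), Gabpa (-0.37 ± 0.0819, adjusted p = 0.00516) and Gabpb1 (-0.20 ± 0.0621, adjusted p = 0.02), and Esrra rose (0.19 ± 0.0610, adjusted p = 0.021). Nrf1 stood at 0.10 (adjusted p = 0.269). Among the members with a window, the ETS letters that Gabpa binds stood in 9 of 16 that fell in DC, 2 of 4 that rose and 14 of 48 not called, and the YY1 letters stood in 0, 0 and 8. Between DC and CC under the Hes3 label the ETS letters stood in 12 of the 31 members with a window that fell (38.7%) and 13 of the 37 that did not (35.1%).

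Genes of the cytosolic ribosome and of oxidative phosphorylation gave counts of the same order, though more of them were bright. The brightest bin by mean signal held 47 of 59 and 56 of 79 of them, against 27 of 77 members. Between the labels in DC 14 of 59 cytosolic ribosomal protein genes fell and 2 rose (median -0.09), and 19 of 79 nuclear genes of oxidative phosphorylation fell and 5 rose (median -0.10). Without Hes3-labelled DC arrays 1 and 5, limma called 0 of either list, and 6 and 19 had an unadjusted p under 0.05. Between DC and CC under the Hes3 label 27 of 59 and 40 of 79 fell, with medians of -0.23 and -0.25, beside 35 of 77 members with -0.24, and 9, 20 and 19 fell without those arrays. Over all genes 18.3% fell and 28.9% rose between the labels in DC, and 18.8% and 21.2% between DC and CC under the Hes3 label. In the brightest bin 40.9% and 44.5% of all genes fell. No difference between the members and these lists was tested, and the lists differ in brightness, so like counts are not read as like behaviour. Of their promoter windows, 17 of 47 for the cytosolic ribosome and 16 of 64 for oxidative phosphorylation held the ETS letters.

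**Figure D5:**
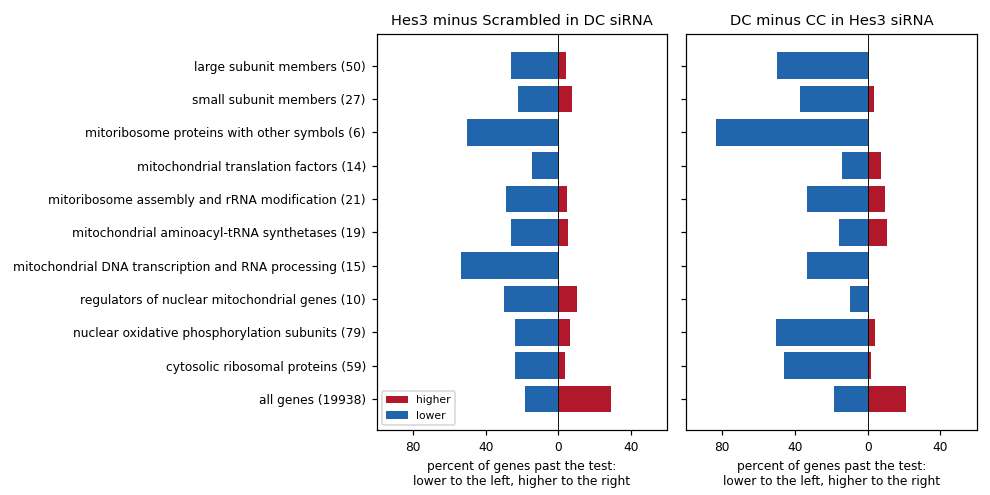
Percent of the genes of each list (rows, with the number measured) that passed the test, lower to the left and higher to the right, for Hes3 against scrambled label in DC and for DC against CC under the Hes3 label. Over all 19938 genes the higher side is the longer one in both panels (28.9% against 18.3%, and 21.2% against 18.8%). For each list the lower side is the longer one. Most genes of each list lay in bins 3 and 4 by mean signal, where the lower side was also the longer one over all genes. Lower against higher was 24.7% against 19.6% and 40.9% against 2.39% between the DC labels. Between DC and CC it was 24.6% against 16.9% and 44.5% against 9.15%.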

How the data were processed

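The deposited table of the authors holds 1 value per probe set and array for 35556 probe sets, on a log2 scale read from the values (3.94 to 14.4), since no label states it. Summarisation, background correction and normalization are not given in the sources used here. The platform annotation of 2016 gave 21789 probe sets 1 symbol, 1621 several and 12146 none, and the probe set of highest mean stood for each of 19938 genes. All 12 columns were used, and their number limits the precision. The members, the gene lists and the alternatives were chosen with earlier results of these data known.

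Group means over all 12 arrays were fitted by lmFit and eBayes of limma 3.58.1, run under R 4.3.3, with 8 residual and 7.62 prior degrees of freedom. The 2-sided p-values of each of 5 contrasts were adjusted over all genes (Benjamini-Hochberg) and called under 0.05. The script was tested on simulated data. Group means carry SDs and differences SEs. Named in each contrast were up to 8 members with the largest change in each direction among those past the threshold, or the 4 of smallest p where fewer than 2 passed, members whose probe sets disagree in sign, and up to 4 genes of each other list. Alternatives were quantile, median-centred and cyclic loess normalization, dim genes left out (under the 40th percentile), trend and robust eBayes, only the arrays compared, the mean of probe sets, a block for the replicate number, a 1.5-fold minimum, each array left out, and DC arrays 1 and 5 under the Hes3 label left out. Class counts without Mrps36 were added after seeing the data. Promoters came from RefSeq (GRCm38.p6), and figures were drawn with matplotlib 3.10.9. Gapdh, Ins1 and other genes were not analysed here.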

Additional observations from a re-analysis of the deposited data

Results flagged for a closer look

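Among 32 named genes in 64 groups of 4 arrays, 4 single arrays stood apart from the other 3 of their group by Dixon's criterion, where chance gives about 1 in 20 groups. Mrpl2 read 8.70 on Hes3-labelled DC array 1, above 8.54 to 8.57 on the others. Mrpl32 read 7.71 on Hes3-labelled DC array 2, above 7.37 to 7.42 on the others. Mrps25 read 8.31 on scrambled DC array 1, below 8.43 to 8.45 on the others. Hes3 read 7.25 on Hes3-labelled DC array 7, below 7.36 to 7.38 on the others.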

How the results depend on the processing

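Counts are members higher and lower past the test, and the cause of a change was not tested unless the setting itself removes arrays or genes. Between the labels in DC the 4 and 19 became 0 and 0 without Hes3-labelled arrays 1 and 5, 0 and 1 with the replicate block, and 0 and 0 with a minimum of 1.5-fold, and the 4 became 2 with centred arrays. Between DC and CC under the Hes3 label the 35 lower became 19 without arrays 1 and 5, 23 with quantile normalization, 17 with the replicate block and 2 with a minimum of 1.5-fold. The 1 higher became 0 without arrays 1 and 5 and with centred arrays, trend and robust eBayes, only the arrays compared, the replicate block or a minimum of 1.5-fold. Under the scrambled label the 1 higher became 2 with cyclic loess or quantile normalization, and the 2 lower became 6 without Hes3-labelled DC arrays 1 and 5, 7 with dim genes left out, 1 with quantile normalization, 0 with the replicate block and 0 with a minimum of 1.5-fold. Leaving out 1 array gave 2 to 5 higher and 8 to 26 lower between the labels in DC, 0 to 2 higher and 0 to 21 lower between scrambled DC and CC, 0 to 1 higher and 7 to 41 lower between Hes3-labelled DC and CC, and 0 to 15 lower for the difference of the label contrasts. A fit without 1 CC array leaves 1 array in that group, so its counts are not read as results about the members. No called value changed sign under these settings. The difference of the label contrasts could not be fitted on only the arrays compared. Of the 19 lower in DC, 10 were kept with cyclic loess and 11 with quantile normalization. The replicate numbers were not shown to pair the arrays: deviations of same-numbered arrays correlated from -0.441 to 0.536. This cannot decide on pairing, since differently numbered arrays were not compared and the 2 arrays of a CC group deviate as mirror images. Fits with the replicate block rest on the arrays numbered 1 and 2, as the other numbers occur on 1 array each. Signal over background was not analysed, so dim probe sets have no stated detection limit.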
